A study of Mus musculus with 23 samples.

Results

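Crypt cells of the newborn mouse intestine were compared between postnatal day 3 (P3) and the day of birth (P0). The comparison was defined by the sample labels: the 3 libraries labelled P3 crypt against the 3 labelled P0 crypt, 6 of the 23 libraries of the series. The animals were CD1 mice, an outbred stock, and no mutation or treatment is given for any group. Epithelium of the medial small intestine was released with EDTA, cells carrying the epithelial protein Epcam were sorted by the adhesion receptor CD44, and the CD44-positive cells were called crypt and the CD44-negative ones villus. Poly(A) RNA was sequenced with a stranded kit. The labels do not say whether a replicate is an animal, a litter or a pool, so each p-value reflects only how far libraries differ within a group, which may be technical. This spread was estimated over the groups of all 23 libraries, not from the 6 compared alone.

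At birth the mouse small intestine has villi but no mature crypts. Dividing cells lie in the flat epithelium between villi, which folds into crypts over the first weeks of life. The same days bring the change from placental supply to milk, colonisation by microbes, and maturation of Paneth cells, which later fill the crypt base with antimicrobial peptides. Genes of low-oxygen response, lipid synthesis and hormone response are known to react to such changes in nutrition and circulation, a link that was not tested here.

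The 6 libraries held 25792789 to 30333619 counts in genes. Of 47593 symbols, 16535 were tested. 1 property of the libraries touches every result. Transcripts counted in P0 crypt replicates 1, 2 and 3 had a mean GC content of 49.7%, 49.0% and 49.2%, those in P3 crypt of 47.0%, 45.6% and 46.1%, and log2 fold changes fell with transcript GC content (Spearman correlation -0.71 across genes, which are not independent replicates). The median log2 fold change was 1.0 in the 1633 genes with a GC content of at most 41.02% and -1.74 in those from 57.64% upward. Therefore genes were fitted once without and once with an offset for a smooth trend on transcript GC content and length, and "rose" and "fell" are used below only for genes with an adjusted p under 0.05 in the same direction in both fits. The offset took the correlation to -0.11. The sorted cells carried their defining transcripts at both ages: Epcam stood at 1683, 1513 and 1463 CPM (read counts normalised to library size) at P0 and at 1979, 2093 and 2107 CPM at P3, and Cd44 at 42.0, 32.4 and 53.9 CPM and 50.6, 67.0 and 88.8 CPM. Epcam itself rose, a call lost without P0 replicate 2 (log2 0.39 without and 0.86 with the offset), P0 replicate 3 (0.37 and 0.84) or P3 replicate 3 (0.39 and 0.82). Other epithelial markers, in CPM of the library total, did not all hold. Cdh1 stood at 1162, 1074 and 1212 at P0 and 1202, 1254 and 1344 at P3, and Cdx2 at 299, 368 and 365 and then 309.5, 183 and 264. Krt8 fell from 1028, 1443 and 1085 to 545, 240.5 and 333, a call lost without P0 replicate 2 (log2 -1.48 and -0.38). Krt18 (548, 822 and 493, then 481, 273 and 351) and Vil1 (1209, 1056 and 1259, then 866, 569.6 and 636) were lower in every P3 library. Each library held both Xist and the Y-linked Ddx3y, the latter at 13.7 to 30.3 CPM of the library total at P0 and 86.4 to 155 at P3, so each contained RNA of both sexes. The Y-linked Eif2s3y, Uty and Kdm5d were likewise higher in every P3 than in every P0 library. Xist overlapped, at 149, 539 and 331 CPM of the total and then 159, 244 and 506. A different mix of sexes and a change with age cannot be told apart for the Y-linked genes, and its part in other results was not tested.

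Without the offset, edgeR's quasi-likelihood test called 3889 genes higher at P3 (23.5% of those tested) and 4642 lower (28.1%). In both fits, 1383 of 16330 genes with a known GC content rose (8.47%) and 1797 fell (11%). These last shares are the background for the gene lists below, and they are not matched to the GC content of a list. Of these genes, 301 rose and 362 fell against the direction that the trend on GC content and length predicted. A change of at least 4-fold in both fits was found for 108 genes that rose and 358 that fell. The 3 P3 values lay entirely above the 3 P0 values for 1344 of the 1383 genes that rose, and entirely below for 1743 of the 1797 that fell. The calls rest on the same values, so separate groups are no further support for a called gene here or below. The share of separate groups over all tested genes is not given here. Among the 1797 genes that fell, P3 replicate 1, the P3 library with the highest GC content, had the highest of the 3 P3 values for 1463, and among the 1383 that rose it had the lowest for 1074. The part of the GC difference in the changes that remained after the offset was not tested. Without P3 replicate 3, 786 genes rose and 1221 fell.

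**Figure D1:**
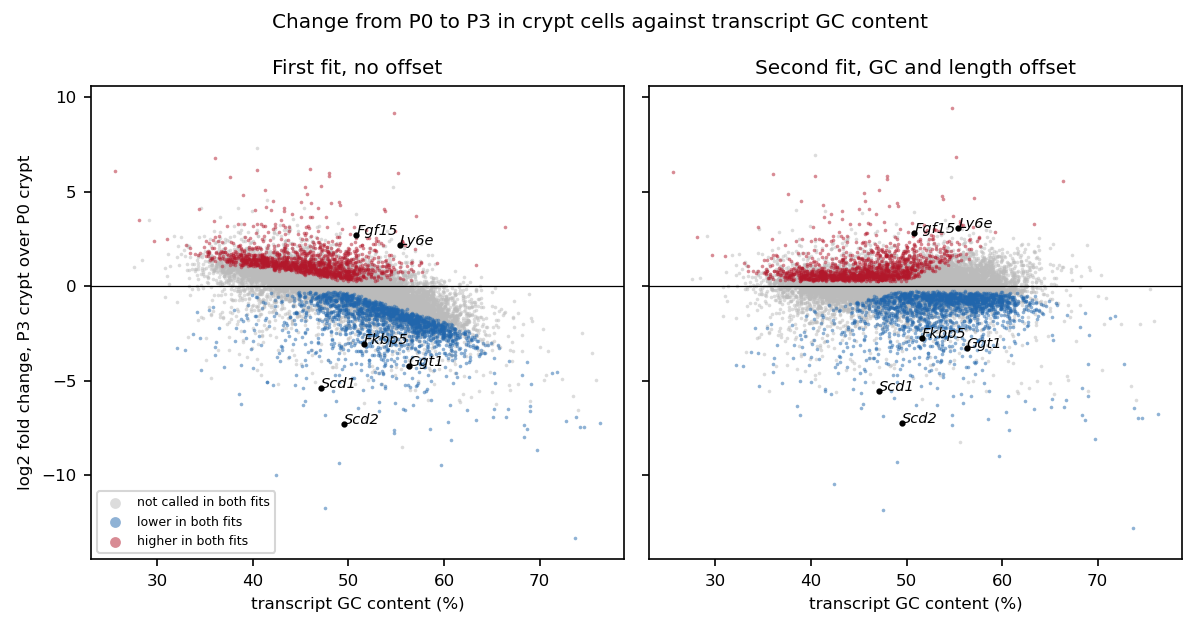
Log2 fold change from P0 to P3 in crypt cells (y axis) against transcript GC content in percent (x axis), a point per gene, without (left) and with (right) the offset for GC content and length. Red genes rose and blue genes fell in both fits, grey genes were not called in both, and the downward slope on the left, from a median of 1.0 at the lowest GC contents to -1.74 at the highest, is largely gone on the right.

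Among genes of glycolysis and of the response to low oxygen, 14 of 28 tested members fell and none rose in both fits, with a median log2 fold change of -1.36 without and -1.03 with the offset, against medians of -0.05 and 0.02 over all genes. The pathway turns glucose into pyruvate and lactate, and many of its genes are known targets of the hypoxia-inducible factors, which bind an element with the core letters ACGTG. Promoters of 4 members that fell are shown because they hold this core. They come from RefSeq on the build GRCm38.p6 and run from 250 bases before to 50 bases after the annotated start, 5′ to 3′ on the strand of the gene, with the core on either strand in capitals. Slc2a1 lies at chr4:119108495-119108794, Ldha at chr7:46845554-46845853, P4ha1 at chr10:59323046-59323345 and Slc16a3 at chr11:120948817-120949116, all on the plus strand.
Slc2a1: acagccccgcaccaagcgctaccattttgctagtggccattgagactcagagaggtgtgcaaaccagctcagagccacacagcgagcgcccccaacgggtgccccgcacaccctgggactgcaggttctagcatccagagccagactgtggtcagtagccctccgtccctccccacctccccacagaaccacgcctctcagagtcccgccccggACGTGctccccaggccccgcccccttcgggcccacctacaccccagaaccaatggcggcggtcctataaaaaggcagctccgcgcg
Ldha: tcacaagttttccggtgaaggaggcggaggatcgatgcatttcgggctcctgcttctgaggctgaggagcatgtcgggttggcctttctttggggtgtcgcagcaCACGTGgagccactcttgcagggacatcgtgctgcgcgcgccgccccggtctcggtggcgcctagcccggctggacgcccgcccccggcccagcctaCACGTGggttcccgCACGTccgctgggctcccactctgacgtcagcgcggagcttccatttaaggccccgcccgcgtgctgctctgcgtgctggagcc
P4ha1: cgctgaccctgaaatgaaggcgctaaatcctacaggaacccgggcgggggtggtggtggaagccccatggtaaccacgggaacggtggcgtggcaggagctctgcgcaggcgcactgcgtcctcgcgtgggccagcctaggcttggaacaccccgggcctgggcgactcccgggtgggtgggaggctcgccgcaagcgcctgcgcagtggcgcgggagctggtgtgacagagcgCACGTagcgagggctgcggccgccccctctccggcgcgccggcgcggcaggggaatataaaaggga
Slc16a3: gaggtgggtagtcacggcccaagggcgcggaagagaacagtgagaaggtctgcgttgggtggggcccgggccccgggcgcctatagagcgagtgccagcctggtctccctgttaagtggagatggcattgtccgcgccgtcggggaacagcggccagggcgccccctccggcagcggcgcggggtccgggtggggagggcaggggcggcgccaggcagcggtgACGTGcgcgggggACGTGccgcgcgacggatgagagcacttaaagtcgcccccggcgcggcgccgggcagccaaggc
Overlapping matches on the 2 strands counted, the core stood once in the windows of Slc2a1 and P4ha1, at 2 positions in Slc16a3 and at 5 in Ldha. It was present in 8 of the 13 members that fell and had a promoter in the table (61.5%): Aldoa, Pkm, Ldha, Slc2a1, Slc16a3, Vegfa, P4ha1 and P4ha2. Of all 11056 tested genes with a promoter, 28.4% held it, and of all 1217 genes that fell, 33.7%. The CCAAT box (CCAAT, either strand) was held by 6 of the 13 (46.2%) and by 42.7% of all promoters. Of other letters searched, AGGTCA was in 4 of the 13 (30.8%) and 15.1% of all, and TTTGAA in 1 (7.69%) and 14.5% of all. These are matches of letters, not bound sites.

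Slc2a1, which codes for the glucose transporter GLUT1, stood at 51.2, 117 and 34.1 CPM in P0 replicates 1, 2 and 3 and at 11.8, 8.34 and 7.87 CPM at P3. All P3 values lay below all P0 values (log2 -2.85 ± 0.47 SE, adjusted p = 6.67e-05 by edgeR, and -2.17 ± 0.48, adjusted p = 0.00277 with the offset). Ndrg1, a stress gene induced by low oxygen, stood at 1141, 2256 and 541 CPM at P0 and 277, 261 and 194 CPM at P3 (log2 -2.43 ± 0.52 and, with the offset, -2.26 ± 0.55). The groups again did not overlap, and for both genes P0 replicate 2 was the highest library. Slc16a3, the lactate exporter MCT4, was lower in abundance, with 5.60, 19.8 and 1.65 CPM at P0 and 0.41, 0.348 and 0.165 CPM at P3 (log2 -4.86 ± 0.93 and -3.70 ± 0.92). The call of Slc16a3 was lost with limma-voom and in a fit of the 6 libraries alone. P4ha1, a collagen prolyl hydroxylase subunit, fell from 6.50, 20.5 and 2.92 CPM to 2.08, 1.85 and 2.31 CPM (log2 -2.25 ± 0.60 and -2.63 ± 0.65), a call that was lost without P0 replicate 2 (log2 -1.17 and -1.57).

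Enzymes of the glycolytic chain fell as well, named here after their values were seen. Ldha, which makes lactate, stood at 833, 922 and 597 CPM at P0 and 392, 240.4 and 232 CPM at P3 (log2 -1.44 ± 0.24 and -1.22 ± 0.19 with the offset). Pfkl, the liver-type phosphofructokinase, went from 250, 391 and 223 CPM to 63.2, 26.6 and 32.9 CPM (log2 -2.82 ± 0.37 and -1.67 ± 0.27). Pkm, which codes for pyruvate kinase, fell by 2.52 on the log2 scale without and by 1.33 with the offset, Aldoa, an aldolase, by 2.40 and 1.30, Eno1, an enolase, by 2.89 and 1.76, and Gpi1, the isomerase of glucose phosphate, by 1.57 and 1.21. All 6 enzymes, picked from the members that fell, had P3 values below every P0 value, as had 1743 of all 1797 genes that fell. Not all of the list moved: Hif1a, the oxygen-regulated factor subunit itself, had log2 0.88 ± 0.29 without and 0.17 ± 0.18 (adjusted p = 0.501) with the offset, and Egln3, an oxygen-sensing hydroxylase, -1.30 ± 0.38 and -1.08 ± 0.41 (adjusted p = 0.0629). Without P0 replicate 2, 9 of the 28 members fell, and the calls of P4ha2 (log2 -1.80 and -1.41 then) and Vegfa (-1.20 and -0.96 then, and -1.19 and -0.99 without P3 replicate 3) were among those lost.

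In lipid synthesis, 6 of 14 genes of fatty acid synthesis fell and none rose, with medians of -1.03 and -0.77. Scd2, a stearoyl-CoA desaturase that makes monounsaturated fatty acids, stood at 1388, 2645 and 94.3 CPM in P0 crypt and at 10.1, 12.1 and 4.16 CPM in P3 crypt. The groups did not overlap although P0 replicate 3 was far below the other P0 libraries (log2 -7.29 ± 1.58, adjusted p = 0.001, and -7.22 ± 1.65, adjusted p = 0.00444 with the offset). Its paralog Scd1 had 11.6, 10.8 and 2.44 CPM at P0 and at most 0.547 CPM at P3 (log2 -5.37 ± 1.08 and -5.56 ± 1.13). Both changes were about the same in both fits.

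Srebf1, the transcription factor gene that drives fatty acid synthesis, fell from 234, 254 and 133 CPM to 27.0, 14.2 and 15.1 CPM (log2 -3.46 ± 0.30 and -2.06 ± 0.19). Fasn, the fatty acid synthase, fell from 117, 267 and 155 CPM to 32.5, 16.7 and 23.6 CPM (log2 -2.89 ± 0.41 and -1.42 ± 0.35), and Fads2, a desaturase of polyunsaturated fatty acids named after its values were seen, from 197, 228 and 151 CPM to 80.3, 47.7 and 63.3 CPM (-1.59 ± 0.28 and -0.86 ± 0.23). For each of these genes the P3 libraries lay below all P0 libraries. Fads1, another desaturase, did not pass (log2 -0.65 ± 0.33 and -0.22 ± 0.34), nor did the elongase Elovl5 in the second fit (0.62 ± 0.18 and 0.07 ± 0.15).

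Of 24 genes of cholesterol synthesis and its control 10 fell and none rose, with medians of -0.94 and -0.59. Mvk, mevalonate kinase, fell from 16.1, 19.6 and 9.28 CPM to 2.73, 1.24 and 1.32 CPM (log2 -3.08 ± 0.55 and -2.11 ± 0.46). Fdps, which makes farnesyl diphosphate, fell from 7.53, 9.85 and 4.92 CPM to 2.15, 1.54 and 1.72 CPM (-2.04 ± 0.50 and -1.91 ± 0.49). Neither gene had overlapping groups. Srebf2, the sterol-sensing transcription factor gene, Dhcr7, an enzyme of the last steps, and Tm7sf2, a sterol reductase, all named after their values were seen, fell by 2.16, 1.66 and 1.62 on the log2 scale without and by 0.77, 1.22 and 1.44 with the offset. Hmgcs1, at the entry of the pathway, had 160.3, 233 and 142 CPM at P0 and 144, 279 and 267 CPM at P3, overlapping groups that passed in neither fit. The sterol response element (TCACNCCAC, either strand) was in none of the 7 promoters of this list's genes that fell, nor in any of the 4 of fatty acid synthesis, and in 1.44% of all. At so low a share, its absence from so few promoters cannot be read. The CCAAT box was in 7 of the 7 cholesterol promoters and in 2 of the 4 of fatty acid synthesis, against 42.7% of all. It was also in 5 of the 7 promoters of amino acid response genes that fell, and in 1 of the 4 of fatty acid oxidation and ketogenesis. Without P0 replicate 2 or P3 replicate 1, 6 cholesterol genes fell.

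**Figure D2:**
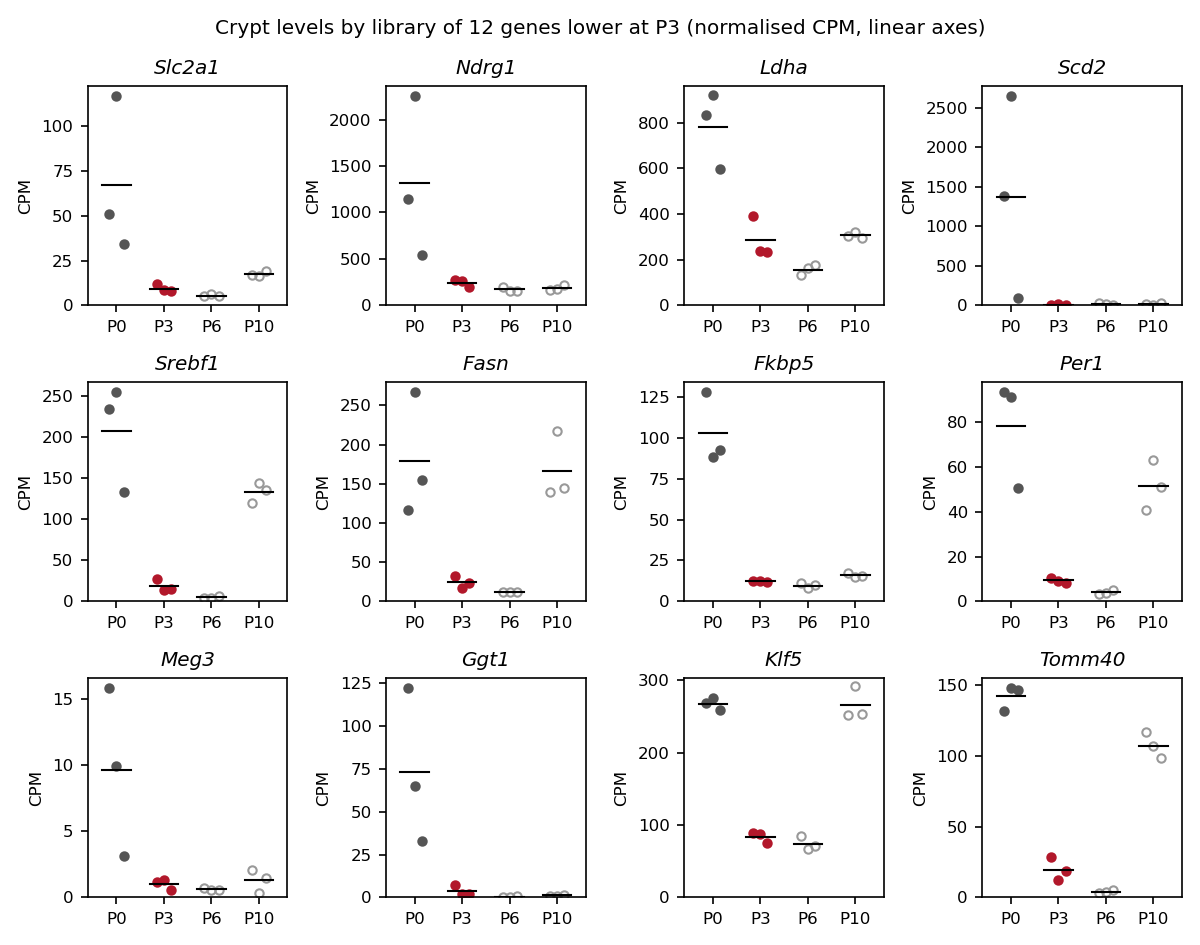
Normalised counts, CPM (y axis, linear from 0) in the 3 crypt libraries of each age (x axis) for 12 genes that fell from P0 to P3, with a point per library and a line at each group's mean. All P3 points (red) lie below all P0 points (dark grey), and at P10 (open) Scd2, Fkbp5, Ndrg1, Meg3 and Ggt1 are still far below P0, whereas Klf5 is back at its P0 level.

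The list of the amino acid response, in which lack of amino acids or stress raises synthesis and transport genes through the factor ATF4, had 8 members that fell and none that rose of 25, with medians of -0.78 and -0.51. Shmt2, the mitochondrial enzyme of serine and glycine metabolism, fell from 159, 259 and 141 CPM to 45.7, 25.1 and 35.1 CPM (log2 -2.40 ± 0.30 and -1.26 ± 0.22). Chac1, which degrades glutathione, was scarce, with 3.81, 0.97 and 0.471 CPM and then 0.137, 0.0386 and 0.033 CPM (log2 -4.56 ± 0.88 and -3.37 ± 0.79, from 174 counts in all at P0 and 6 at P3). The tRNA synthetase genes Sars and Wars, named after their values were seen, fell by 1.23 and 1.04 on the log2 scale without and by 0.70 and 0.49 with the offset. The stress factor gene Ddit3 fell as well (-1.54 ± 0.52 and -1.93 ± 0.53), a call lost without P0 replicate 2 (-0.78 and -1.20) or P3 replicate 3 (-1.15 and -1.54), without a filter on low counts and in a fit of the 6 libraries alone. Atf4 itself had 244, 401 and 252 CPM at P0 and 245, 233 and 212 CPM at P3, with changes of -0.38 ± 0.19 and 0.52 ± 0.21 that passed in neither fit.

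Among genes that glucocorticoid hormones are known to induce, 4 of 15 fell and none rose (medians -0.77 and -0.19). Fkbp5, a co-chaperone of the glucocorticoid receptor, had narrow groups, with 128, 88.4 and 92.3 CPM at P0 and 12.4, 12.7 and 11.8 CPM at P3 (log2 -3.07 ± 0.26, adjusted p = 8.44e-08, and -2.73 ± 0.25, adjusted p = 7.76e-07 with the offset). Per1, a clock gene that these hormones also induce, fell from 93.6, 91.5 and 50.6 CPM to 10.6, 9.31 and 8.36 CPM (-3.06 ± 0.26 and -1.45 ± 0.22). Klf9, a transcription factor gene of the same response, changed less, from 41.9, 46.2 and 22.8 CPM to 18.0, 25.4 and 15.3 CPM (-0.92 ± 0.25 and -1.11 ± 0.25), with overlapping groups. Zbtb16, a zinc finger repressor gene, stood at 3.24, 0.0303 and 3.12 CPM at P0 and lost its call without P3 replicate 3 (-4.23 and -3.52), with limma-voom, with a stricter filter and in fits of crypt libraries alone. Pck1, a gluconeogenic enzyme gene, did not pass (0.09 ± 0.46 and 0.61 ± 0.48), nor did the metallothionein gene Mt1 (-1.16 ± 0.61 and -0.69 ± 0.54). The clock repressor Nr1d1 fell from 7.08, 12.8 and 5.63 CPM to 1.88, 1.27 and 0.958 CPM (-2.63 ± 0.39 and -1.54 ± 0.38). Its list of clock genes had 3 of 15 members that fell and 1, Nr1d2, that rose, a call lost without P0 replicate 2 or 3 or P3 replicate 2 or 3 (log2 1.56 ± 0.40 and 0.86 ± 0.31 with all, 0.71 to 0.85 with the offset without 1 of them). The hour of collection is not in the labels.

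Imprinted growth genes, which are expressed from the allele of 1 parent and are known for high levels before birth, had 6 of 19 members that fell and none that rose (medians -1.34 and -1.11). Meg3, a maternally expressed long noncoding RNA, fell from 15.8, 9.94 and 3.12 CPM to 1.13, 1.35 and 0.595 CPM (log2 -3.23 ± 0.71 and -3.05 ± 0.76). Igf2r, the receptor that clears the growth factor IGF2, named after its values were seen, fell from 301, 276 and 278 CPM to 152, 114 and 93.0 CPM (-1.25 ± 0.23 and -0.84 ± 0.19). Neither gene's groups overlapped. H19, the most abundant of the list, stood at 7879, 2848 and 2363 CPM at P0 and 584, 514 and 424 CPM at P3 (-3.10 ± 0.75 and -2.11 ± 0.73, adjusted p = 0.0405 with the offset). The call of H19 was lost without P0 replicate 1 (-2.36 and -1.48), P3 replicate 1 (-3.22 and -2.07), P3 replicate 2 (-3.08 and -2.27) or P3 replicate 3 (-2.99 and -2.01), with limma-voom and without a filter on low counts. Igf2, its neighbour, had 1450, 545 and 493 CPM and then 238, 176 and 137 CPM, which passed without the offset (-2.17 ± 0.48) and not with it (-1.11 ± 0.47, adjusted p = 0.0895). Without P0 replicate 1, 3 members of the list fell, and without P3 replicate 3, 2.

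P0 replicate 1 also had the highest summed markers of mesenchyme, pancreas and liver, erythroid, immune and neural cells. The summed level of 18 mesenchyme and muscle markers was 86.3, 15.8 and 32.8 CPM in P0 replicates 1, 2 and 3 and 34.6, 13.0 and 8.17 CPM at P3, that of 11 pancreas and liver markers 221, 37.3 and 46.1 CPM and then 32.9, 23.2 and 13.3 CPM, and that of 7 erythroid markers 15.5, 2.17 and 3.53 CPM and then 0.853, 2.05 and 1.25 CPM. Immune markers summed to 107, 25.2 and 39.6 CPM at P0 and 43.4, 22.4 and 24.1 CPM at P3, with Cd3e and Cd8a at 0 in all P0 libraries and Cd79a at 0 at P3. Neural and glial markers summed to 48.9, 22.5 and 28.7 CPM and then 36.0, 30.9 and 28.7 CPM, and endothelial markers, with no library apart, to 14.6, 12.6 and 14.8 CPM and then 11.7, 9.42 and 9.93 CPM. The part of these cells in the imprinted genes and in the fetal gene Afp was not tested beyond leaving P0 replicate 1 out. Afp, alpha-fetoprotein, had 134, 23.4 and 7.98 CPM at P0 and 8.10, 9.27 and 4.13 CPM at P3 (-2.94 ± 0.72 and -3.37 ± 0.78) with overlapping groups, and lost its call without P0 replicate 1 (-1.13 and -1.59) and in a fit of the 6 libraries alone. In sorted bulk samples fewer cells of a type and less RNA per cell cannot be told apart.

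Genes of attachment to the basement membrane and of the cytoskeleton fell in part. Hemidesmosomes anchor basal epithelial surfaces to laminin through the integrin pair α6β4. Of 23 genes of this list 7 fell and none rose, with medians of -1.75 without and -0.49 with the offset, at a median GC content of 54.6%. Itgb4, the β4 integrin gene, fell from 118, 97.9 and 96.6 CPM to 26.4, 12.8 and 16.4 CPM (log2 -2.49 ± 0.28 and -0.81 ± 0.17), so most of its change lay along the GC trend. Its partner Itga6 had 169, 179 and 234 CPM and then 244, 309.9 and 301 CPM, which passed in neither fit (0.56 ± 0.27 and 0.54 ± 0.24). The laminin chain genes Lama5 (5.11, 4.88 and 2.83 CPM, then 0.478, 0.309 and 0.463 CPM) and Lamb2 (5.84, 6.94 and 4.45 CPM, then 1.20, 0.425 and 0.892 CPM) fell by 3.34 and 2.76 on the log2 scale without and by 1.55 and 1.28 with the offset. In a fit of the 6 libraries alone 4 members fell.

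Actb, which codes for β-actin and is often taken as a reference gene, stood at 3663, 4094 and 3217 CPM at P0 and 1537, 1500 and 1334 CPM at P3, with no overlap (log2 -1.33 ± 0.17 and -1.14 ± 0.14). The nonmuscle myosin heavy chain genes Myh14 (447, 522 and 366 CPM, then 74.5, 35.9 and 40.6 CPM) and Myh9 (529.9, 714 and 716 CPM, then 176, 149 and 176 CPM) fell by 3.14 and 1.97 without and by 1.36 and 0.65 with the offset. Of the 25 genes of actomyosin and apical constriction, the contractile machinery that narrows cell tops when epithelium folds, 6 fell and 1 rose (medians -0.52 and 0.02). The latter, the thymosin gene Tmsb4x (0.66 and 0.45), named after its values were seen, was not called without P0 replicate 1 or 3 or P3 replicate 2 or 3 (0.33 to 0.46 with the offset). Rac1, a switch of cytoskeleton assembly, passed in neither fit (0.23 ± 0.11 and 0.14 ± 0.09).

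Transcription factor genes of the intestine changed in both directions, 3 of 30 upward and 4 downward, near the background. Klf5, which supports proliferation of intestinal crypts, fell from 269, 275 and 259.7 CPM at P0 to 88.6, 88.0 and 75.5 CPM at P3 (log2 -1.67 ± 0.13, adjusted p = 4.34e-08, and -1.85 ± 0.12, adjusted p = 6.25e-09 with the offset). Esrra, the orphan receptor gene that controls mitochondrial genes, fell from 187, 186 and 169 CPM to 34.9, 11 and 14.2 CPM (-3.17 ± 0.38 and -3.14 ± 0.36). Transcripts of Klf5 and Esrra have GC contents of 47.9% and 50.3%, and neither change shrank with the offset by more than its standard error. Ppara, a fatty acid sensor, fell from 19.2, 25.9 and 26.7 CPM to 9.63, 8.30 and 4.0 CPM (-1.71 ± 0.29 and -1.43 ± 0.30). Those that rose were the forkhead gene Foxa1 (0.58 and 1.34), the glucocorticoid receptor gene Nr3c1 (0.92 and 0.31) and the vitamin D receptor gene Vdr (0.64 and 1.12), named after their values were seen, and each lost its call when single libraries were left out. Foxa1 was not called without P0 replicate 1 (0.44 and 1.16) or 3 (0.56 and 1.34) or P3 replicate 2 (0.57 and 1.15) or 3 (0.52 and 1.27), nor with scaling by library size or with the replicate number as a block. Nr3c1 was not called without P0 replicate 1 (0.80 and 0.27) or 2 (0.90 and 0.28) or P3 replicate 2 (0.79 and 0.27) or 3 (0.95 and 0.33), with either other form of the offset or in a fit of the 6 libraries alone. Vdr was not called without P0 replicate 2 (0.60 and 1.10) or 3 (0.51 and 1.0). Without P0 replicate 1 or P3 replicate 3, 1 member of the list rose. The PPAR gene Ppard, outside the lists, fell from 25.5, 29.2 and 26.2 CPM to 7.52, 2.24 and 3.37 CPM (-2.62 ± 0.31 and -2.23 ± 0.26). Hnf4a, the master regulator of enterocytes, had -0.25 ± 0.15 without and 0.44 ± 0.13 with the offset, opposite signs that were not called.

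Housekeeping families held members that rose and members that fell. Of 78 nuclear genes of the respiratory chain 23 fell (29.5% against the background of 11%) and 6 rose (7.69% against 8.47%), with medians of -0.34 and -0.11. With 1 library left out, 21 to 26 of them fell. Mitochondrially encoded genes, which are not in this list, held 3.67%, 5.91% and 3.53% of the counts at P0 and 6.14%, 9.13% and 8.60% at P3, and 21191 to 21595 symbols had a count at P0 against 19537 to 20150 at P3. The part of these differences in the results was not tested beyond a fit without mitochondrially encoded genes and another on counts thinned to equal totals, which called 1436 and 1288 genes higher and 1749 and 1739 lower in both fits. Uqcrq, a complex III subunit gene, fell from 245, 246 and 221 CPM to 70.1, 42.0 and 42.5 CPM (log2 -2.20 ± 0.28 and -2.14 ± 0.23), and Cox5b, of complex IV, from 107, 91.1 and 86.1 CPM to 33.4, 32.3 and 28.1 CPM (-1.60 ± 0.25 and -1.62 ± 0.21). The complex I gene Ndufb4 rose from 5.26, 6.36 and 5.57 CPM to 15.7, 24.1 and 20.1 CPM (1.80 ± 0.23 and 2.25 ± 0.23). Atp5b, of the ATP synthase, was not called in both (-0.38 ± 0.14 and -0.12 ± 0.13). Outside the lists, Tomm40, the pore of mitochondrial protein import, fell from 132, 148 and 147 CPM to 28.8, 12 and 18.4 CPM (-2.85 ± 0.32 and -2.23 ± 0.22).

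Of 79 ribosomal protein genes 19 fell (24.1%) and 13 rose (16.5%), both above the background, with medians of -0.13 and 0.16. Rplp1, of the ribosomal stalk, fell from 492, 584 and 471 CPM to 67.3, 40.9 and 34.5 CPM (log2 -3.44 ± 0.33 and -2.17 ± 0.20), while the abundant Rpl4 stood at 1650, 2007 and 1562 CPM and 1822, 1497 and 1851 CPM with no call (-0.01 ± 0.21 and -0.20 ± 0.17). Ribosomal protein genes, Ndufb4 and other short genes have near-identical processed copies in the genome, so reads could be split between copies and these values are uncertain. Without P3 replicate 3, 8 ribosomal protein genes rose, and without P3 replicate 2, 12 fell. Splicing factor genes, of a median GC content of 44.5%, had 10 of 40 higher and 5 lower (medians 0.65 and 0.18). The background is not matched to this low GC content, the same limit as for the zinc finger genes below. Srsf2 rose from 361, 488 and 431 CPM to 598, 829 and 803 CPM (0.80 ± 0.19 and 0.82 ± 0.21), and Sf3b5, of the branch-site complex, fell from 52.5, 47.5 and 47.1 CPM to 9.22, 3.24 and 5.42 CPM (-3.04 ± 0.32 and -3.42 ± 0.36). Without P0 replicate 1, P3 replicate 2 or P3 replicate 3, 5 splicing factor genes rose.

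Zinc finger protein genes, a large family of mostly repressive DNA-binding factors with low GC content (median 44.7%), had 78 of 338 tested members that rose, 23.1% against the background of 8.47%, and 18 that fell (medians 0.69 and 0.30). A call also needs the fit without the offset, in which genes of low GC content shifted upward. The 1633 genes with a GC content of 43.67% to 45.74% had medians of 0.53 without and 0.05 with the offset. The share that rose among genes of like GC content was not computed, so how far 23.1% exceeds it is not known. Without P3 replicate 3, 46 rose, and without P0 replicate 2, 11 fell. Zfp787, among the 4 called members with the largest changes, fell from 16.8, 20.9 and 18.1 CPM to 8.37, 5.72 and 8.43 CPM (log2 -1.30 ± 0.22 and -1.62 ± 0.23), against the direction of the family's median.

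**Figure D3:**
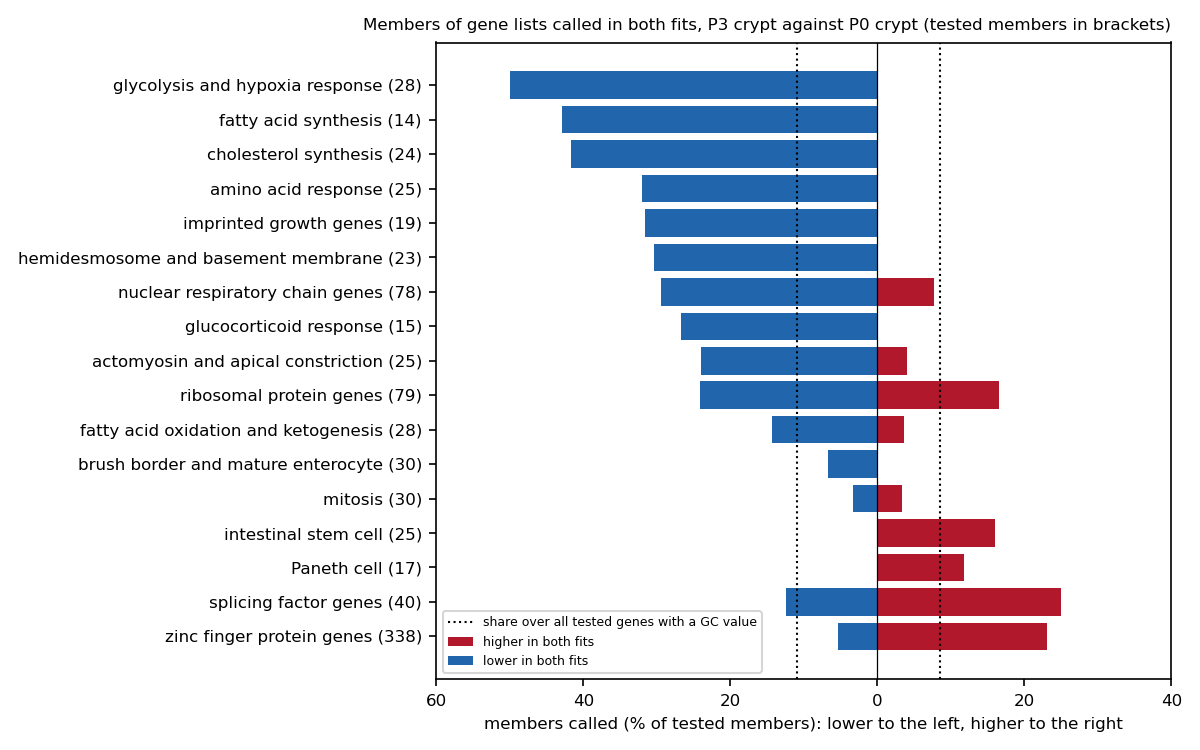
Share of the tested members of 17 gene lists and families that rose (red, to the right) or fell (blue, to the left) in both fits, in percent on the x axis, with dotted lines at the shares over all genes with a GC value (8.47% and 11%), which are not matched on GC content. Glycolysis and hypoxia response, fatty acid synthesis and cholesterol synthesis have the widest bars to the left, and splicing factors and zinc finger proteins to the right.

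The genes that rose at P3 included secreted and surface proteins. Fgf15, the ileal hormone that holds down bile acid synthesis in the liver, rose from 25.3, 18.5 and 21.3 CPM to 234, 95.4 and 91.4 CPM (log2 2.69 ± 0.48, adjusted p = 0.000129, and 2.81 ± 0.53, adjusted p = 0.000944 with the offset). Ly6e, a lipid-anchored surface protein gene of the interferon response, rose from 14.1, 9.52 and 9.75 CPM to 42.4, 46.3 and 62.9 CPM, and its change was larger with the offset (2.18 ± 0.30 and 3.09 ± 0.32) since its GC content is 55.4%. In both genes all P3 values lay above all P0 values, which the naming rule required of genes outside the lists. S100g, which codes for the calcium-binding protein calbindin-D9k, rose from 86.6, 107 and 94.4 CPM to 283, 367 and 373 CPM (1.83 ± 0.29 and 1.62 ± 0.26). Lect2, a secreted chemotactic protein gene, rose from 44.6, 36.2 and 66.3 CPM to 239, 139 and 135 CPM (1.80 ± 0.32 and 1.63 ± 0.37).

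Casp1, the inflammasome protease, rose from 76.3, 56.8 and 113 CPM to 335, 537 and 407 CPM (log2 2.38 ± 0.26 and 1.55 ± 0.22), and AW112010, a transcript known from activated immune cells, from 5.20, 4.30 and 4.89 CPM to 21.2, 34.9 and 34.3 CPM (2.65 ± 0.22 and 1.89 ± 0.17). Pigr, the receptor that carries IgA across the epithelium, rose from 429, 475 and 512 CPM to 979, 1084 and 1112 CPM (1.17 ± 0.29 and 1.24 ± 0.29). It was the 1 member called of 20 antimicrobial and microbial response genes. Ifi44, an interferon-induced gene, rose from 0.605, 0.242 and 0.442 CPM to 5.16, 4.52 and 2.78 CPM (3.26 ± 0.53 and 2.50 ± 0.53) and was likewise the 1 member called of 26 MHC class II and interferon genes. Without P0 replicate 1, 3 antimicrobial and 6 MHC class II and interferon genes rose, and without P0 replicate 3, P3 replicate 1 or P3 replicate 2, 2 antimicrobial genes did. The summed immune markers given above overlapped between the ages.

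Utrn, which codes for utrophin, a link between actin and the membrane, rose from 79.7, 113 and 114 CPM to 215, 335 and 386 CPM (log2 1.61 ± 0.26 and 1.65 ± 0.21). Lrrn1, a neuronal leucine-rich membrane protein gene, rose from 16.8, 20.5 and 15.4 CPM to 56.1, 80.5 and 99.8 CPM (2.17 ± 0.38 and 1.93 ± 0.36). A2m, the protease inhibitor α2-macroglobulin, rose from 4.54, 5.06 and 10.9 CPM to 15.6, 38.5 and 20.9 CPM (1.87 ± 0.38 and 1.90 ± 0.36). None of these 3 had overlapping groups, which the naming rule required of genes outside the lists.

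**Figure D4:**
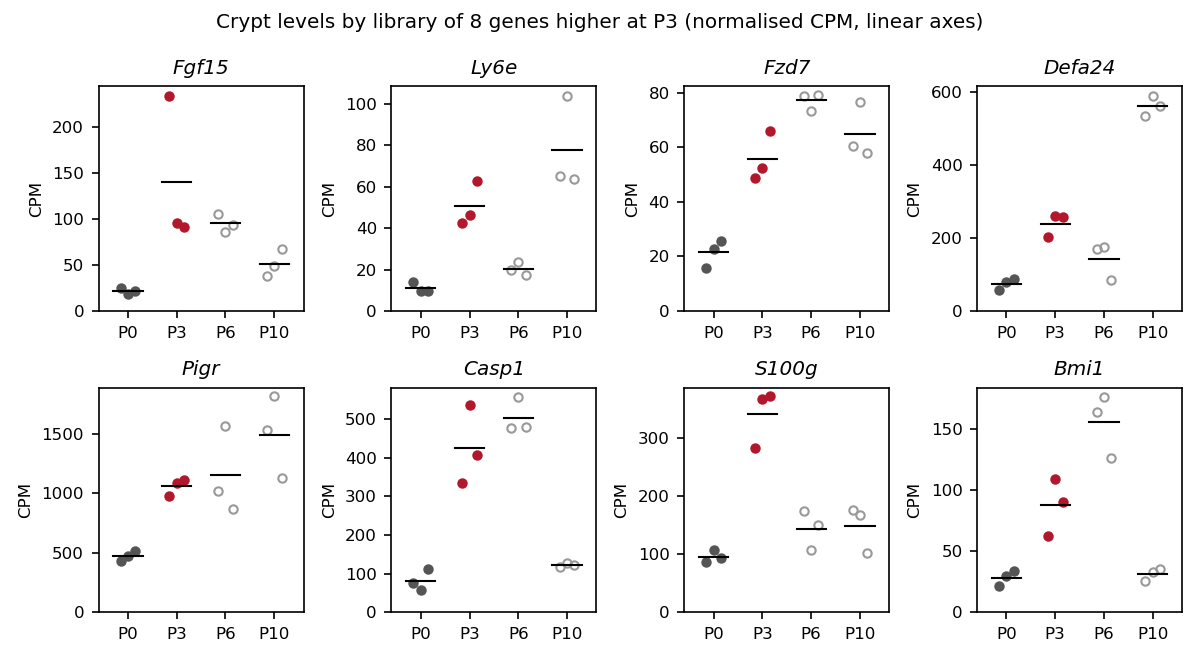
Normalised counts, CPM (y axis, linear from 0) in the 3 crypt libraries of each age (x axis) for 8 genes that rose from P0 to P3, with a point per library and a line at each group's mean. All P3 points (red) lie above all P0 points (dark grey); at P10 (open) Pigr, Defa24 and Ly6e stand higher still, and Bmi1 and Casp1 are back near P0.

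Stem cell genes had 4 of 25 members that rose and none that fell (16% against the background of 8.47%, medians 0.26 and 0.54). Bmi1, a Polycomb gene known from slowly cycling cells, rose from 21.6, 29.4 and 33.6 CPM to 62.8, 109 and 90.5 CPM (log2 1.63 ± 0.30 and 0.81 ± 0.20). Olfm4, a marker of crypt base cells, rose from 696, 949 and 758 CPM to 1946, 3474 and 2862 CPM (1.78 ± 0.40, adjusted p = 0.000945, and 1.01 ± 0.35, adjusted p = 0.0421 with the offset). Although its groups were far apart, its call in the second fit was lost without any 1 of 5 libraries: P0 replicate 1 (0.94 with the offset), 2 (1.13) or 3 (0.95), or P3 replicate 2 (0.91) or 3 (0.97). It was also lost with a filter of 1 CPM in 3 libraries. Tnfrsf19, a receptor gene of the TNF family (1.54 and 1.60), and Smoc2, a matrix protein gene (0.76 and 0.70), lost theirs too, the former without P0 replicate 2 or 3 or P3 replicate 1 or 3 (1.17 to 1.65 with the offset) and the latter without P0 replicate 1 or 3 or P3 replicate 1 or 3 (0.53 to 0.64). In all, 2 members rose without P0 replicate 1 and 1 without P0 replicate 3 or P3 replicate 3. Lgr5, the receptor that defines cycling crypt base stem cells, had 55.1, 109 and 53.6 CPM and then 105, 187 and 215 CPM, which passed without the offset (1.22 ± 0.33) and not with it (0.75 ± 0.29, adjusted p = 0.0655). Of 30 mitosis genes 1 rose and 1 fell. The cyclin gene Ccna2 rose from 216, 222 and 247 CPM to 354, 474 and 450.5 CPM (0.90 ± 0.18 and 0.49 ± 0.15), a call lost without P0 replicate 1 or 2 or P3 replicate 2 or 3 (0.44 to 0.48 with the offset), and the kinase gene Aurka fell from 76.9, 71.4 and 77.8 CPM to 48.3, 33.4 and 35.0 CPM (-0.95 ± 0.18 and -0.74 ± 0.17). The proliferation marker Mki67 did not pass, with 291, 519.8 and 484 CPM and then 505, 661 and 574 CPM (0.43 ± 0.24 and 0.29 ± 0.21).

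Among Wnt genes, whose signal maintains crypt stem cells, 2 of 23 rose and 1 fell. The receptor gene Fzd7 rose from 15.9, 22.9 and 25.7 CPM to 48.9, 52.3 and 66.1 CPM (log2 1.38 ± 0.30 and 2.13 ± 0.32), whereas the coreceptor gene Lrp5 fell from 123, 119 and 147 CPM to 36.1, 17.0 and 20.1 CPM (-2.41 ± 0.31 and -1.45 ± 0.23). Neither had overlapping groups. Ctnnb1, which codes for β-catenin, was the other that rose, from 1039.5, 1050.1 and 1019 CPM to 1320.1, 1446 and 1509 CPM (0.46 ± 0.17 and 0.60 ± 0.15), a call lost without any 1 of the P0 libraries or P3 replicate 3 (0.42 to 0.47 without the offset). Without P0 replicate 1 or 2 or P3 replicate 3, 1 Wnt gene rose, and without P3 replicate 1, 2 Wnt genes fell. The secretory lineages gave few calls. Of 17 Paneth cell genes 2 rose and none fell (medians 1.08 and 0.93): the defensin genes Defa24, from 58.7, 78.4 and 87.0 CPM to 202, 259 and 258 CPM (1.68 ± 0.33 and 1.81 ± 0.30), and Defa26, from 0.121, 0.182 and 0.0295 CPM to 0.581, 0.579 and 0.43 CPM (2.22 ± 0.62 and 2.20 ± 0.59). Defensin genes are a family of close copies, so the assignment to a member is uncertain. Lyz1, the Paneth cell lysozyme, was low at both ages, with 2.93, 5.36 and 8.31 CPM and 5.43, 7.84 and 5.09 CPM.

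Of 21 goblet cell genes 1 rose and 1 fell. The chemokine gene Ccl6 rose from 15.1, 16.9 and 16.6 CPM to 32.5, 60.4 and 62.7 CPM (log2 1.68 ± 0.36 and 1.17 ± 0.36), a call lost without any 1 library but P3 replicate 1 (1.01 to 1.20 with the offset). Fcgbp, a mucus protein gene, fell from 398, 380 and 522 CPM to 91.3, 58.9 and 70.4 CPM (log2 -2.56 ± 0.29 and -1.14 ± 0.23), and the mucin gene Muc2 did not pass (-0.21 ± 0.27 and 0.16 ± 0.25). Of 26 enteroendocrine genes 2 fell, the granin-like Pcsk1n, which had 3 counts at P3, and the hormone gene Sct (secretin), from 109, 50.9 and 26.6 CPM to 7.89, 4.60 and 3.6 CPM (-3.53 ± 0.62 and -1.93 ± 0.48). Enterocyte lists gave few calls with all libraries. Of 30 genes of brush border and mature enterocytes 2 fell and none rose: the actin-bundling Espn (-3.69 ± 0.48 and -1.83 ± 0.40, lost in a fit of the 6 libraries alone) and the brush border myosin Myo1a (-0.96 ± 0.16 and -0.39 ± 0.13, lost there and without P0 replicate 2 or 3 or P3 replicate 1 or 3, at -0.41 to -0.27 with the offset). Lactase (Lct), Vil1, Fabp1 and sucrase-isomaltase (Sis) were not called, with log2 changes of -0.34 ± 0.40, -0.18 ± 0.14, -0.40 ± 0.44 and -0.55 ± 0.44 with the offset. Of 26 genes of lipid absorption and chylomicron assembly, which package dietary fat, 16 were called lower without the offset and 2 in both fits (medians -1.03 and -0.41), but 9 fell without P0 replicate 2, and 1 without P0 replicate 1 or P3 replicate 3. Scarb1, a lipoprotein receptor gene, fell from 56.3, 26.6 and 43.6 CPM to 18.0, 9.65 and 12.9 CPM (-1.64 ± 0.34 and -1.77 ± 0.34). Apoa4, an apolipoprotein of chylomicrons, had 16760, 2719 and 5754 CPM at P0 and 3357, 1615 and 1337 CPM at P3, overlapping groups that were not called with the offset (-2.0 ± 0.56 and -0.79 ± 0.49). Ggt1, which splits extracellular glutathione, was an exception outside the lists: it fell from 122, 65.1 and 32.9 CPM to 7.41, 2.24 and 1.92 CPM (-4.24 ± 0.70 and -3.28 ± 0.61).

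Later ages share the P0 libraries as a reference, so their levels are set beside without a test. The GC content of the crypt libraries was 44.3% to 44.6% at P6 and 49.0% to 49.3% at P10, the latter near that of P0. Of the 1797 genes that fell, 384 (21.4%) had a P10 mean nearer to the P3 than to the P0 mean on the log scale, and of the 358 that fell by at least 4-fold in both fits 116 (32.4%). Of the 1383 that rose it was 404 (29.2%), and of the 108 with at least 4-fold 65 (60.2%). These means were not corrected for GC content, and the genes were picked on the same P0 and P3 values. The part of either in these shares was not tested. Mean levels of 16.9 ± 11.6 CPM for Scd2 (SD, n = 3), 16.0 ± 1.29 for Fkbp5, 187 ± 29.8 for Ndrg1 and 1.16 ± 0.39 for Ggt1 at P10 were nearer to the P3 than to the P0 means of these genes. In contrast, Klf5 stood at 266 ± 23 CPM, Tomm40 at 108 ± 9.51 CPM and Srebf1 at 133 ± 12.3 CPM at P10, after 74.1, 4.18 and 5.0 CPM at P6. Of genes that rose, Pigr stood at 1494 ± 346 CPM, Defa24 at 563 ± 27.4 and Ly6e at 77.8 ± 23 at P10, and Casp1 at 122 ± 4.82.

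The same change was measured in villus cells of the same ages. No gene (0%) passed the test of a difference between the crypt and the villus change, by edgeR's quasi-likelihood test without (1696 genes at an unadjusted p under 0.05) or with the offset (1932), or by limma-voom (1729). DESeq2 called 5 (1827 unadjusted), which were named from this result: Ifi202b, Usp54, Gatm, Itgb6 and Map3k1. The GC content of the villus libraries fell as well, from 49.4%, 49.7% and 49.4% at P0 to 46.4%, 45.6% and 46.9% at P3. The villus values and differences that follow are without the offset. In villus cells Scd2 had a log2 change of -6.04, Fkbp5 of -2.63, Slc2a1 of -2.68, Klf5 of -1.99, Fgf15 of 2.13 and Ly6e of 1.89. The crypt change minus the villus change was -1.25 ± 1.73 for Scd2, -0.43 ± 0.34 for Fkbp5, -0.17 ± 0.63 for Slc2a1, 0.32 ± 0.18 for Klf5, 0.56 ± 0.64 for Fgf15 and 0.29 ± 0.42 for Ly6e. None of these differences passed the test, and the error was widest for Scd2. A lack of calls among 16535 tested genes does not show that the crypt and villus changes were equal. For Defa24 the villus change was 0.74 and the difference 0.94 ± 0.46 (adjusted p = 0.489).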

How the data were processed

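The authors deposited a table of raw read counts per gene symbol for each library. The tools Trim Galore, STAR and HTSeq and the build mm9 appear, with no version or setting, per the submitters' processing notes. How strand and multiply aligned reads were handled in counting is not given in the sources used here. Summary lines (5 per library) were left out.

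Genes were kept by filterByExpr (minimum count 10, minimum total 15), scaled by TMM and fitted over all 23 libraries with edgeR 4.0.16 in R 4.3.3 (robust quasi-likelihood, a coefficient per group). The second fit added an offset per gene and library from natural splines (5 degrees of freedom each) on the GC content and length of the longest GENCODE M21 transcript, matched by symbol for 98.8% of tested genes. No coordinates of the mm9 counts were used. P-values were adjusted by Benjamini-Hochberg over all genes, and SE values derive from the F statistic. CPM values are scaled by TMM, except summed markers, sex-linked genes, Cdh1, Cdx2, Krt8, Krt18 and Vil1, which are CPM of the library total. Where a sentence gives 2 log2 values for a gene, the first is without and the second with the offset. The fits were tested on simulated data. Replicates of each group were checked to differ beyond sampling noise. The libraries carry no molecular identifiers.

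Outside the lists the naming rule took the 14 largest changes per direction among genes called in both fits with separate groups and a mean log2 CPM of at least 3. Each list or family gave its 4 called members of largest change and at most 2 others, not all of them printed. Some further genes of sorting, cell type, adhesion and growth belong to the rule. Lists, members and rules were chosen with earlier results of these data known. The ACGTG motif was added after values were seen. Further motifs were searched in these and other lists, and not all are printed. Some genes are not reported here. Alternatives were other scalings (DESeq2 size factors, library size), filters, limma-voom 3.58.1, DESeq2 1.42.0, fewer libraries in the fit, thinned counts, no mitochondrially encoded genes, other offsets, a replicate block, and each library left out.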

Additional observations from a re-analysis of the deposited data

How the results depend on the processing

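Counts of genes that rose or fell in both fits stayed within 1.5 times of 1383 and 1797 under the other settings, except that 2089 rose without a filter on low counts, and 735 rose and 1194 fell in a fit of the 6 libraries alone. Leaving out 1 library gave 786 to 1267 genes that rose and 1221 to 1722 that fell. Without the offset these calls with 1 library left out ranged from 3244 to 3908 higher and from 3523 to 4700 lower. With 1 library left out, members that fell ranged from 9 to 17 for glycolysis and hypoxia response and from 6 to 10 for cholesterol synthesis. Under the other settings they ranged from 11 to 17 and from 9 to 11, and 4 hemidesmosome and basement membrane genes fell in the fit of the 6 libraries alone. DESeq2 called 5 genes for the difference between crypt and villus, edgeR 0 under each setting. A set of 91 named genes that rose or fell, which does not hold every gene printed above, was followed through the settings. Of these, 69 kept their call under every setting that tested them, 20 lost it without at least 1 library, and none reversed.

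Same-numbered P0 and P3 libraries had correlations of 0.22, 0.02 and 0.06 of their deviations from the group means, so the numbers were not taken to pair them. With the replicate number as a block, 1322 genes rose and 1749 fell in both fits, and 3800 and 4598 were called without the offset. Depth limits genes with few counts, such as Chac1 (6 counts in all at P3).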
